A study of Mus musculus with 4 samples.

Results

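The genes described here are the heat shock proteins, the DNAJ (J-domain) proteins and the heat shock factors in the transcriptome of NKT cells from the small intestinal lamina propria (SI-LP). They were chosen by symbol from the deposited count table: every gene whose symbol starts with *Hspa*, *Hspb*, *Hspd*, *Hspe*, *Hsph*, *Hsp90* or *Dnaj*, together with *Hsf1* and *Hsf2*. This gave 76 of 25239 genes, of which 29 are *Hsp* genes, 45 are *Dnaj* genes and 2 are *Hsf* genes. The rule names no measured value. The prefix *Hspb* also takes in *Hspbp1*, a nucleotide exchange factor of HSP70, and *Hspbap1*, neither of which is a small heat shock protein.

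Chaperones keep newly made and damaged proteins soluble until they fold. DNAJ proteins hand unfolded clients to HSP70 and stimulate its ATP hydrolysis, HSP110 proteins and other exchange factors let HSP70 release them, and HSP90 completes the maturation of selected clients, among them kinases of T cell receptor signaling such as LCK. The cytosol, the endoplasmic reticulum (ER) and the mitochondria each hold their own set. The transcription factor HSF1 induces the cytosolic set on heat or protein damage, whereas the unfolded protein response induces the ER set.

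NKT cells, which see lipid antigens on CD1d through their T cell receptor, were sorted from the SI-LP of untreated wild-type C57BL/6Jax mice of both sexes, aged 7 to 10 weeks according to the methods. The gate was TCRβ+ CD1d-tetramer+ and negative for B220, CD11b, CD11c, CD8 and a dead-cell dye. All mice received an anti-ARTC2 nanobody shortly before harvest, and the intestine was incubated and enzymatically digested at body temperature before the sort. There were 4 RNA-seq libraries of this 1 condition. The sample titles mark replicates 3 and 4 as First and replicates 1 and 2 as Second. These are called the first and the second experiment here, although the titles do not say what the words stand for. The sources used here do not say whether a library held cells of 1 mouse or of several. The only comparisons the labels give are therefore between experiments and between libraries of 1 experiment. Both compare replicates of 1 condition, and the comparison between experiments also holds any difference in handling or content between them. In bulk samples, fewer cells of a type and less RNA per cell cannot be told apart.

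Replicates 1, 2, 3 and 4 held 7233071, 8732858, 5487147 and 3882803 counts on genes. The libraries stood apart in content. The ribosomal RNA precursor *Rn45s* took from 7.36% to 28.1% of the counts, with the most in replicate 3. Values are given as CPM, which is scaled to library size with TMM factors that limit the weight of such genes, and levels between genes are compared only as TPM, which also corrects for gene length. The 7 T cell markers summed to 3702, 1325, 4092 and 1629 CPM in replicates 1 to 4, so they were present in each library. The 21 epithelial markers summed to 964, 8295, 225 and 29172 CPM, and the 6 plasma cell markers to 6435, 6669.9, 158 and 348 CPM. Most of the epithelial sum of replicate 4 came from *Lyz1*, with 21151 CPM there against 338 CPM in replicate 2. Epithelial markers were thus high in replicates 2 and 4 and plasma cell markers in replicates 1 and 2, and the part of these other cells in any chaperone value below was not tested. The CD8 markers *Cd8a* and *Cd8b1* did not reach the filter for testing.

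Of the 76 chaperone genes, 60 reached 10 counts in 2 or more libraries, the filter for testing and ranking, and 50 reached 10 counts in all 4. The 76 genes held 1.37% (95% Wilson interval 1.36% to 1.38%), 1.603% (1.59% to 1.61%), 1.26% (1.26% to 1.27%) and 0.918% (0.909% to 0.928%) of the counts of replicates 1 to 4, or 1.29% ± 0.285 (SD, n = 4). These intervals cover counting error only and were far narrower than the spread between the libraries. Replicate 2 held the largest share and replicate 4 the smallest. Without *Rn45s* in the total, the shares were 1.55%, 1.73%, 1.76% and 1.17%, and replicate 3 held the largest. Only 5 genes, *Hspa8*, *Hsp90ab1*, *Hsp90b1*, *Hspa5* and *Dnaja1*, took 61.9%, 62.4%, 58.6% and 58.0% of all chaperone counts.

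By mean TPM, the 60 tested genes spread over nearly the whole range of the 11689 genes that passed the filter, and their median lay at percentile 65.9. The *Hsp* genes that were tested stood higher, with a median percentile of 95.4 (19 genes), than the tested *Dnaj* genes, with 61.1 (39 genes). The filter had left out 10 of 29 *Hsp* genes but only 6 of 45 *Dnaj* genes. The comparison thus holds for tested genes only, since low *Hsp* genes were left out more often. Among the 60, 39 were above the median of all genes and 16 were in the top 10%. *Hspa8*, the constitutive cytosolic HSP70, led with 2832 ± 952 TPM (SD, n = 4), at percentile 99.8. *Hsp90ab1*, the constitutive cytosolic HSP90, followed with 2124 ± 369 TPM. The next were *Hsp90b1* (GRP94, the HSP90 of the ER) with 1419 ± 817 TPM, *Hspa5* (BiP, the HSP70 of the ER) with 1266 ± 495 TPM and *Dnaja1*, a cytosolic J-protein, with 859 ± 475 TPM. At the low end, *Dnajc16* and *Dnajc28* had 1.38 ± 1.16 and 1.57 ± 1.54 TPM.

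**Figure D1:**
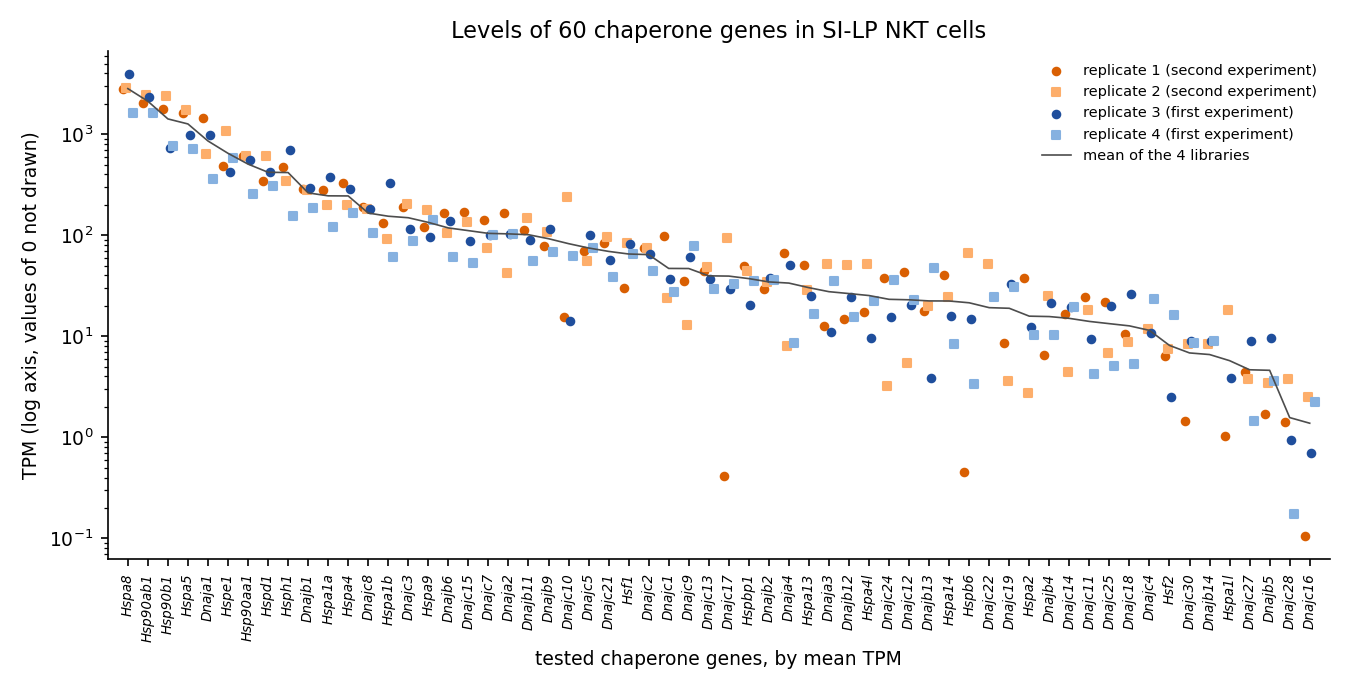
TPM (log axis) of the 60 chaperone genes that passed the filter, ordered by mean TPM (gray line), with one point for each of the 4 libraries; values of 0 are not drawn. The highest gene, *Hspa8*, had a mean of 2832 TPM and the lowest, *Dnajc16*, a mean of 1.38 TPM, and the points of low genes lie farther apart than those of most high genes.

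The heat-inducible chaperones, a list of 12 genes that HSF1 is known to induce or to keep expressed, mostly stood high in these cells. Of these genes 11 were tested, and 10 of the 11 were in the top 10% by TPM, with a median percentile of 97.3. The exception among the tested genes was *Dnajb4*, an HSP40 family member, with 15.7 ± 8.68 TPM. The small heat shock protein *Hspb1* (HSP27) had 0, 14, 0 and 3 counts in replicates 1 to 4 and did not pass the filter. The list was chosen with earlier results of these data known and includes the constitutive *Hspa8* and *Hsp90ab1*. Its level therefore depends on that choice. *Dnaja4*, a heat-inducible gene that is not on the list, stood at percentile 61.1.

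*Hspa1a* and *Hspa1b* encode the strongly inducible cytosolic HSP70 and are near-identical neighbors on chromosome 17 (34969359 to 34972156 and 34956429 to 34959238, minus strand, GRCm38), 10120 bases apart. Their upstream sequences are shown because they make plain how alike the pair is, with the heat shock element core explained further on in capitals. Of the 250 bases before the start, 247 (98.8%) are the same.
Hspa1a (chr17:34972157-34972406, minus strand): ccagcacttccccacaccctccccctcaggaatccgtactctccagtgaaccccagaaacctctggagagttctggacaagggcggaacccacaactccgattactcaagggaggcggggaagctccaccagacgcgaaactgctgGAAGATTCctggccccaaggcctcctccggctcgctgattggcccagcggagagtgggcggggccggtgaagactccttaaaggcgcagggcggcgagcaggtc
Hspa1b (chr17:34959239-34959488, minus strand): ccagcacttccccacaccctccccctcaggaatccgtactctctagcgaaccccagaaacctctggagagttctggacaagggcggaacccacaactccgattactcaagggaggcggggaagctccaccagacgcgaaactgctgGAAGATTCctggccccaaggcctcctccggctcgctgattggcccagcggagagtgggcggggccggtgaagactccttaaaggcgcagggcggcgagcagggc

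Because primary alignments of read pairs that fit several places were counted too, the split of reads between *Hspa1a* and *Hspa1b* is uncertain and their sum is the sturdier value. Together they had 387, 265, 814 and 205 CPM in replicates 1 to 4. Replicate 3 was highest and replicate 4, of the same experiment, lowest, 3.96 times apart. For *Hspa1b* alone, the mean of 164 CPM fell to 92.4 CPM without replicate 3. *Hspa1a* took 68.0%, 68.4%, 53.3% and 66.2% of the sum, so the split moved in replicate 3 alone. For the sum, the log2 fold change of the second against the first experiment was -0.65 (SE 0.78, adjusted p = 1.0, Benjamini-Hochberg, from the quasi-likelihood test of edgeR).

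*Hspa8* had 1975, 1986, 3393 and 1392 CPM in replicates 1 to 4. *Hsph1*, the HSP110 that releases clients from HSP70, had 552, 392, 994 and 219 CPM. *Hsp90aa1*, the inducible HSP90, had 582, 561, 642 and 293 CPM. In all 3 genes replicate 3 was highest and replicate 4 lowest, so the experiments overlapped. *Dnajb1*, the main stress-induced J-protein of HSP70, ran in a narrower band, with 309, 297, 387 and 242 CPM. *Hsp90ab1* was among the steadiest of all, with 1706, 2002, 2402 and 1659 CPM, a ratio of 1.45 between its highest and lowest library. *Dnaja1* had 1752, 746, 1435 and 521 CPM, and was lower in replicate 2 than in replicate 1 and in replicate 4 than in replicate 3.

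Summed over the list, the heat-inducible genes had 7697, 7071, 10692 and 5054 CPM in replicates 1 to 4. Of the 11 tested genes, 8 were highest in replicate 3, against 21.4% of all tested genes, and 8 were lowest in replicate 4, against 21.3% of all. The median difference of replicate 4 from replicate 3 was -1.13 log2 units, against 0.08 over all genes, and that of replicate 2 from replicate 1 was -0.05, against 0.13. T cell markers were highest in the same library for 6 of 7 genes, and their part in the pattern was not tested. Their own median difference of replicate 4 from replicate 3 was -1.37 log2 units, larger in size than that of the list. Scaled to these markers, the list would by its median not be lower in replicate 4. Counts of genes on that scale were not made for the list. The count highest in replicate 3 rests on the scaling. With total counts alone, under which the median difference of replicate 4 from replicate 3 over all genes is 0.40 log2 units, it was 4 of 11, against 12.1% of all genes, while 7 of 11 were lowest in replicate 4, against 20.2%. Immediate early genes rise on cell activation and during tissue handling. Of these genes, 7 of 11 were lowest in replicate 3, against 23.3% of all tested genes. Any relation of activation or handling to the chaperone values was not tested.

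**Figure D2:**
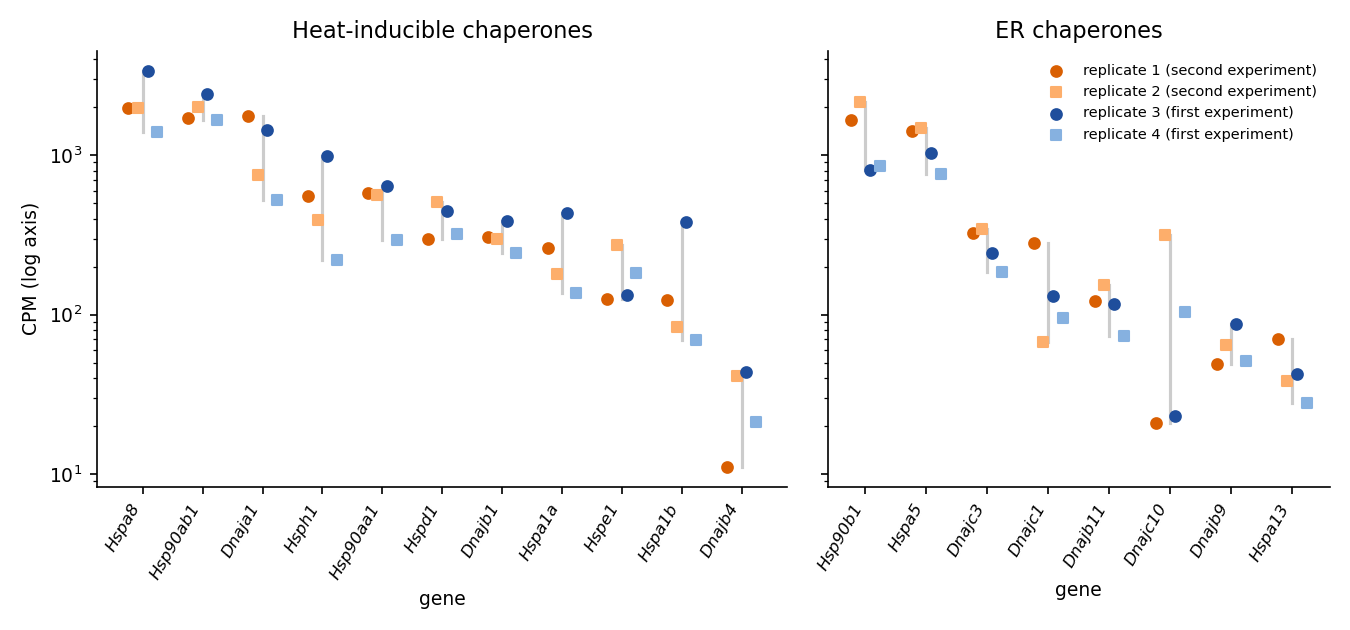
CPM (log axis) of the 11 tested heat-inducible chaperones (left) and the 8 ER chaperones (right), ordered by mean CPM, with one point for each library and a gray line over their range. In the left panel replicate 3 (dark blue) is the highest point for 8 of 11 genes; in the right panel both libraries of the second experiment (orange) lie above both of the first (blue) for *Hsp90b1*, *Hspa5*, *Dnajc3* and *Dnajb11*.

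The promoters of this list were searched for the core of the heat shock element, the binding sequence of HSF1, as GAANNTTC or TTCNNGAA, in windows of 250 bases before to 50 bases after the start from RefSeq (GRCm38.p6). Each of these words reads as itself on the other strand, so both strands are covered, and overlapping matches were counted as 1 stretch. A window was found for 61 of the 76 chaperone genes, and among the genes without one are *Hspa8*, *Hsp90aa1* and *Hsp90ab1*. The core was in 16 of 61 matched chaperone genes (26.2%), in 8 of the 9 matched heat-inducible genes and in 1 of 7 matched ER genes, against 17.0% of 27025 matched genes. *Dnajb1* was the heat-inducible gene without a match, which says only that these letters are not in its window. *Hspe1* and *Hspd1*, which encode the mitochondrial HSP10 and HSP60 and start head to head on chromosome 1, share the longest run of overlapping cores, of 18 bases. It is shown on the *Hspe1* strand with the stretch of the *Dnajb4* promoter, both being all core, and with the upstream sequence of *Hsph1*, where the core is in capitals.
Hspe1 (chr1:55088059-55088076, plus strand): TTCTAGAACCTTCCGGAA
Dnajb4 (chr3:152193852-152193859, minus strand): TTCTAGAA
Hsph1 (chr5:149636337-149636586, minus strand): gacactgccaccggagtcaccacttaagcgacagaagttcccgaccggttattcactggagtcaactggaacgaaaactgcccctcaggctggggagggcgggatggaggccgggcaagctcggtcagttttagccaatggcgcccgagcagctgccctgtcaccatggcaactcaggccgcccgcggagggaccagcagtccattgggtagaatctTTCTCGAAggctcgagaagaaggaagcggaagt

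The ER chaperones were 8 genes, all tested and all above the median of all genes by TPM. For 4 of them both libraries of the second experiment lay above both of the first, against 14.7% of all tested genes, although no gene passed the test. *Hsp90b1* had 1652 and 2144 CPM in the libraries of the second experiment, replicates 1 and 2, against 813 and 850.3 CPM in those of the first, replicates 3 and 4. *Hspa5* had 1417 and 1479 CPM against 1037 and 762 CPM. *Dnajc3* (p58IPK), a J-protein that works with BiP, had 327 and 344 CPM against 244 and 185 CPM. In these 3 genes, as in *Dnajb11* (ERdj3, another J-protein of BiP) with 122 and 154 CPM against 117 and 73.3 CPM, the libraries of the second experiment lay above those of the first without overlap.

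The log2 fold change of the second against the first experiment was 1.19 for *Hsp90b1* (SE 0.66, unadjusted p = 0.117), 0.69 for *Hspa5* (SE 0.64), 0.65 for *Dnajc3* (SE 0.54) and 0.54 for *Dnajb11* (SE 0.58), each with an adjusted p of 1.0 by edgeR's quasi-likelihood test. Over all tested chaperone genes, groups did not overlap in this direction in 10 of 60. No ER gene lay without overlap in the other direction. The remaining 4 ER genes overlapped. *Dnajc10* (ERdj5), a disulfide reductase, had 20.9, 314, 23.2 and 103 CPM, so replicates 2 and 4 were high, and its mean of 115 CPM fell to 49.1 CPM without replicate 2. *Dnajc1*, an ER membrane J-protein, had 283, 67.1, 130.1 and 95.3 CPM, *Dnajb9* (ERdj4) had 49.0, 64.9, 87.7 and 51.4 CPM, and *Hspa13* had 70.7, 38.6, 42.4 and 27.9 CPM. Exons of *Dnajc1* share 8.73% of their bases with *Mllt10* on the other strand, and reads of such a pair cannot be told apart in counts without strand.

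Other genes of ER folding and of the plasma cell list stand beside these values. Among 15 further ER folding and stress genes, 6 lay higher in the second experiment without overlap, against 14.7% of all tested genes, and 1 lower, against 14.4%, and 0 were called. *Xbp1*, a transcription factor of the unfolded protein response, had 286 and 472 CPM against 133 and 135 CPM (log2 fold change 1.5, SE 0.57, unadjusted p = 0.0373, adjusted p = 1.0). Of the 6 plasma cell markers, 5 were higher in the second experiment without overlap, against the same 14.7%. *Jchain*, which joins polymeric antibodies, had 6099 and 6383 CPM against 2.46 and 196 CPM, and *Mzb1*, an ER protein of antibody-secreting cells, had 37.7 and 33.0 CPM against 0 and 0.502 CPM. The part of plasma cell RNA in the ER chaperone values was not tested.

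The unfolded protein response acts through the ER stress element, searched on both strands in the same windows as CCAAT and CCACG with any 9 bases between them. It was in 3 of 7 matched ER genes, *Hspa5*, *Hsp90b1* and *Dnajc3*, and in no other chaperone gene matched, against 0.137% of all matched genes. The ER set is known to be induced by this response, so these matches are no independent result. Any part of this element in the levels of these genes here was not tested. The upstream sequences of the 3 genes are shown with the element in capitals.
Hspa5 (chr2:34771840-34772089, plus strand): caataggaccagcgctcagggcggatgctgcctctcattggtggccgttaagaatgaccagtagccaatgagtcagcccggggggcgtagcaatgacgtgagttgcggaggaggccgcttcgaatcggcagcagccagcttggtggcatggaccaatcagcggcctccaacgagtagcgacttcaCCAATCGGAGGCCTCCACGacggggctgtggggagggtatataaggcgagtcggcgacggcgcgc
Hsp90b1 (chr10:86705445-86705694, minus strand): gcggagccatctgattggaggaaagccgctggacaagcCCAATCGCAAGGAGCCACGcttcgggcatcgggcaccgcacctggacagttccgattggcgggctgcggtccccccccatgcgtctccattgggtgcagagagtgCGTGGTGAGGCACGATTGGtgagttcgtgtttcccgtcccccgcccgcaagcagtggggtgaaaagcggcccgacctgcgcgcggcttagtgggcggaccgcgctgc
Dnajc3 (chr14:118937682-118937931, plus strand): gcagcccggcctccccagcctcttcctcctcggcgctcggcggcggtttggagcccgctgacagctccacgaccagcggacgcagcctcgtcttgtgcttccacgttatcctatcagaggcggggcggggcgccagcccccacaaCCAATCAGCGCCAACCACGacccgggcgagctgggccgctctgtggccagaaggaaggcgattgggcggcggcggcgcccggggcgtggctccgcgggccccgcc

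Mitochondrial chaperones were a list of 8 genes, all tested, with 5 above the median of all genes by TPM. Summed, they had 625, 1054, 789 and 770.3 CPM in replicates 1 to 4, with replicate 2 highest. *Hspd1* (HSP60), the chaperonin of the matrix, had 298, 509.6, 449 and 319 CPM. *Hspe1* (HSP10), its lid, had 125, 272, 133 and 182 CPM. Of the exon bases of *Hspe1*, 12.5% overlap *Hspd1* on the other strand, and reads there cannot be assigned without strand. Replicate 2 was highest and replicate 1 lowest for both genes. *Hspa9* (mortalin), the HSP70 of the matrix, had 122, 176, 119 and 174 CPM with a ratio of 1.47 between its highest and lowest library.

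Among the J-proteins of the mitochondrion, *Dnaja3* (TID1) had 11.2, 44.4, 11.8 and 37.6 CPM, with replicates 2 and 4 high. *Dnajc15*, of the inner membrane, had 36.6, 28.3, 23.2 and 13.8 CPM, and *Dnajc11* had 23.8, 17.3, 11.4 and 5.02 CPM. In both of these genes the second experiment lay above the first without overlap. On the whole list this held for 2 of 8 genes, against 14.7% of all tested genes. Another 2 of 8 lay below, against 14.4%. *Dnajc19*, a partner of the protein import motor, had 7.90 and 3.26 CPM in the second experiment against 37.1 and 34.4 CPM in the first. Its log2 fold change of -2.68 (SE 1.13) had the lowest unadjusted p of the chaperone genes, 0.0521, with an adjusted p of 1.0 by edgeR's quasi-likelihood test, and 3.28% of its exon bases overlap *Fxr1* on the other strand. *Dnajc30* had 0.554, 3.16, 4.24 and 4.01 CPM and shares 37.6% of its exon bases with *Bud23*.

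Both heat shock factors were measured, *Hsf1* above and *Hsf2* below the median of all tested genes by TPM. *Hsf1* (chromosome 15, 76477362 to 76501155, GRCm38) had 25.8, 70.7, 86.4 and 68.2 CPM, with 65.3 ± 25.1 TPM (SD, n = 4), at percentile 78.2. Replicate 1 was lowest. *Hsf2* had 5.54, 6.42, 2.68 and 17.1 CPM and stood at percentile 22.9 with 8.12 ± 5.73 TPM.

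Outside these lists, the remaining genes spread over nearly the whole range of levels. *Dnajc8*, known from the spliceosome, had 88.3, 83.1, 104 and 59.7 CPM. *Dnajb6*, which holds back protein aggregation, had 273, 168, 274 and 121 CPM. *Dnajc13*, an endosomal J-protein, was the steadiest of the 50 chaperone genes that reached 10 counts in each library, with 114, 121, 116 and 91.1 CPM and a ratio of 1.33 between its highest and lowest library. *Hspa4*, an HSP110-type exchange factor, had 507, 301, 543 and 309 CPM and was lower in replicates 2 and 4. Among the same 50 genes, those that spread widest by this ratio were *Dnajc10* (15.0), *Hspa2* (14.1) and *Dnajc24* (14.1). *Hspa2*, an HSP70 best known from testis, had 33.8, 2.39, 13.6 and 11.04 CPM, and *Dnajc24*, an enzyme partner in diphthamide synthesis, had 15.1, 1.24, 7.59 and 17.6 CPM. Replicate 2 was lowest for both.

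Of the 16 genes that did not pass the filter, 6 had 0 counts in all 4 libraries: *Dnajb7*, *Dnajb8*, *Dnajc5b*, *Dnajc5g*, *Hspb3* and *Hspb9*. A count of 0 allows up to 3 counts, which is 0.415, 0.344, 0.547 and 0.773 CPM of the total counts of replicates 1 to 4. The other 10 were *Dnajb3*, *Dnajc6*, *Hspa12a*, *Hspa12b*, *Hspb1*, *Hspb2*, *Hspb7*, *Hspb8*, *Hspb11* and *Hspbap1*. *Dnajb3* had its 47 counts in replicate 2 alone, and *Hspa12b* its 12 and *Hspa12a* its 8 counts in replicate 4 alone. Of the 10 genes with the *Hspb* prefix only *Hspb6* (HSP20) and *Hspbp1* were tested. *Hspb6* had 2, 423, 50 and 10 counts in replicates 1 to 4, so most of its reads came from replicate 2.

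Between the experiments, 0 of the 60 tested chaperone genes were called at an adjusted p under 0.05 (quasi-likelihood test of edgeR, Benjamini-Hochberg), against 0% of all tested genes. At an unadjusted p under 0.05 there were 0 of 60, against 2.12% of all tested genes, and DESeq2 called 0 of 60 with 41 calls among all genes. The biological coefficient of variation over all tested genes was 0.951, fitted to the 4 libraries without a term for the experiment. It therefore includes any difference between the experiments and cannot serve as a separate measure of replicate error. After *Dnajc19*, the lowest unadjusted p was that of *Dnajc9*, a histone chaperone, which had 19.1 and 6.89 CPM in the second experiment and 40.8 and 51.2 CPM in the first (log2 fold change -1.82, SE 0.97, unadjusted p = 0.106, adjusted p = 1.0). In all, 9 of 60 chaperone genes lay lower in the second experiment without overlap, against 14.4% of all tested genes, and all 9 were *Dnaj* genes. They are 23.1% of the 39 tested *Dnaj* genes, of which 15.4% lay higher without overlap, and this difference was not tested. Both shares of the chaperone genes, 16.7% higher and 15.0% lower, are near those of all genes.

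Within the experiments there is 1 library a side and hence no test. In replicate 4 over 3 and also in replicate 2 over 1, 6 of 60 chaperone genes were higher by over 1 log2 unit, against 19.0% of all tested genes. They were *Dnajc10*, *Dnaja3*, *Hspa4l*, *Dnajc4*, *Dnajc16* and *Dnajc22*. *Dnajc22* had 0, 259, 0 and 58 counts in replicates 1 to 4, so it was seen in the libraries high in epithelial markers alone. *Hspa4l*, an HSP110-type exchange factor, had 20.5, 60.04, 14.1 and 32.1 CPM. Of the epithelial markers, 16 of 21 were higher in the same 2 libraries by this measure, and their part in the values of these genes was not tested. *Dnajc4* and *Dnajc16* were low, with 0 and 1 counts in replicate 1.

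Lower in both by over 1 log2 unit were 3 of 60 chaperone genes, against 8.08% of all: *Dnaja1*, *Dnaja4* and *Dnajc25*. *Dnaja4*, a heat-inducible cytosolic J-protein that was not on the list above, had 70.2, 8.14, 64.7 and 10.8 CPM, and *Dnajc25* had 13.2, 4.02, 14.7 and 3.76 CPM. In both genes replicates 1 and 3 lay well above replicates 2 and 4. All 7 T cell markers were also lower in replicate 4 than 3 and in replicate 2 than 1. For 5 of 7 the difference was over 1 log2 unit in both. The part of T cell markers in these values was not tested. With the T cell marker median as the scale of each library, 17 chaperone genes were higher (42.7% of all genes) and only *Dnaja4* was lower (1.10% of all genes).

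**Figure D3:**
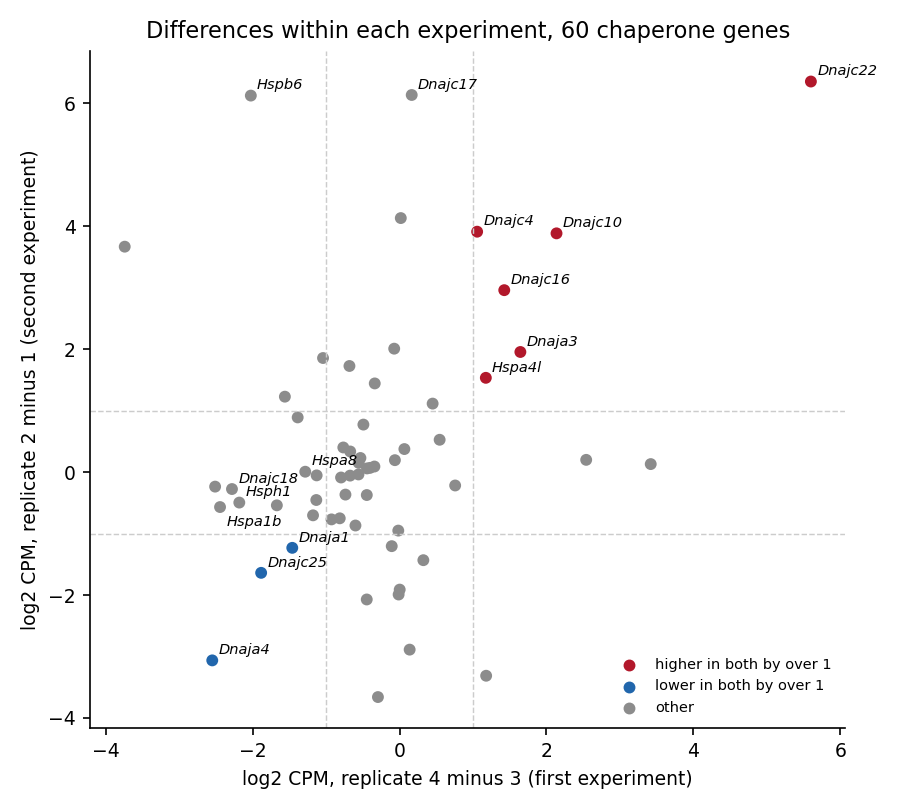
Difference in log2 CPM within the first experiment (x axis, replicate 4 minus 3) and within the second (y axis, replicate 2 minus 1) for the 60 tested chaperone genes, with dashed lines at 1 log2 unit either way. The 6 red genes were higher and the 3 blue genes lower in both, and 42 of 60 genes, among them *Hspa8*, *Hsph1* and *Hspa1b*, lie left of 0 on the x axis, against 47.4% of all tested genes. The T cell markers, which are not drawn, had a median of -1.37 log2 units for replicate 4 minus 3.

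The spread between the libraries was measured for each gene. The median SD of log2 CPM over 4 libraries was 0.88 for the 60 genes and 1.02 for all tested genes. Among genes that reached 10 counts in each library, it was 0.72 for 50 chaperone genes and 0.75 for all 8089 genes. Among the 60, the *Hsp* genes had a median SD of 0.55 and the *Dnaj* genes, which were lower in level, one of 0.998. A single library stood apart from the other 3, by the size of its gap over the range, in 1 of 60 chaperone genes (*Dnajc18*), against 7.96% of all tested genes.

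Partners of the chaperones and related genes were measured as lists beside them. Of a list of 26 co-chaperones and related genes, most of which bind HSP70 or HSP90, 24 were tested and 0 were called. Within the experiments, *Bag3*, an exchange factor of HSP70, was higher in replicates 2 and 4, with 6.93, 34.2, 14.5 and 34.9 CPM. *Stip1*, which links HSP70 to HSP90, was lower there, with 176, 70.2, 145 and 61.7 CPM, as were *Ahsa1*, the activator of HSP90, with 72.9, 13.9, 75.0 and 21.8 CPM and *Sugt1*, an adaptor of HSP90, with 54.2, 16.4, 55.1 and 18.3 CPM. These are the genes of this list past 1 log2 unit in the same direction within both experiments. Of the 24 tested, 1 was higher (4.17%), against 19.0% of all tested genes, and 3 were lower (12.5%), against 8.08%. All 8 subunits of TRiC, the cytosolic chaperonin that folds actin and tubulin, were tested, with 0 called. Their summed level was 1271, 1580.0, 1143 and 1059 CPM, and in the second experiment 4 of 8 were higher without overlap, against 14.7% of all tested genes, and 1 lower, against 14.4%.

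**Figure D4:**
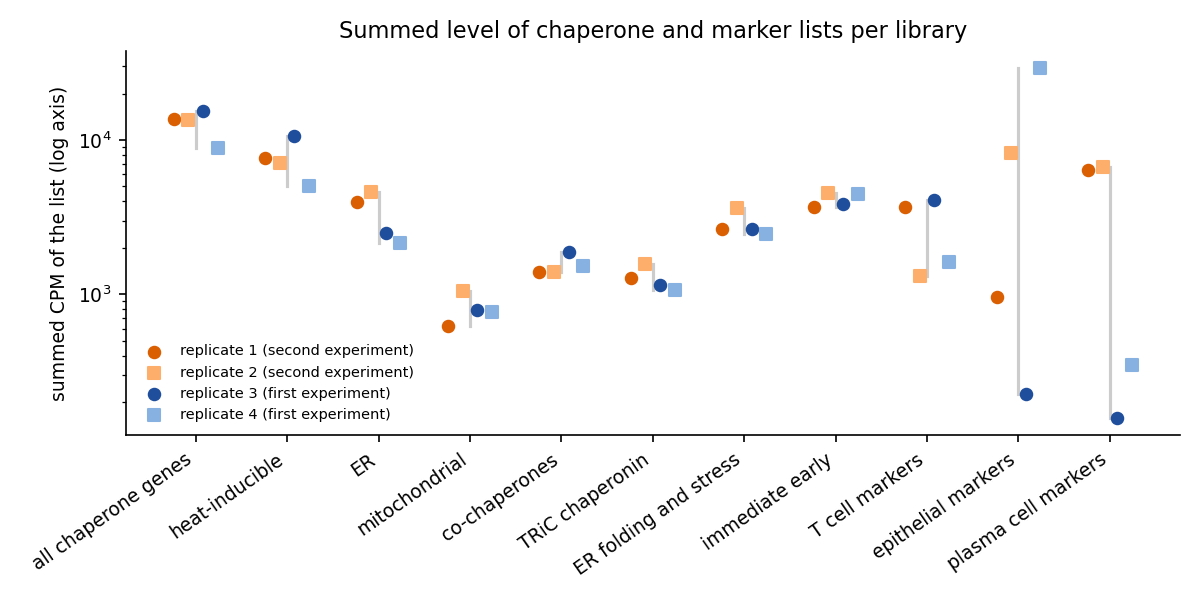
Summed CPM (log axis) of each gene list in the 4 libraries, one point a library, with a gray line over the range. The heat-inducible chaperones reach from 5054 to 10692 CPM and the ER chaperones from 2148 to 4605 CPM, while the epithelial markers reach from 225 to 29172 CPM and the plasma cell markers from 158 to 6669.9 CPM. The highest epithelial point, of replicate 4, holds 21151 CPM of *Lyz1*.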

How the data were processed

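RNA-seq libraries of NKT cells sorted from the SI-LP were analysed as deposited. The authors deposited raw counts per gene, made with featureCounts 1.6.4 from primary alignments on the exons of RefSeq genes, without a strand option. The methods name HISAT2 and GRCm39, the submitters' processing notes Bowtie2, RSEM and GRCm38.p6, so the aligner that placed reads of near-identical genes such as *Hspa1a* and *Hspa1b* is uncertain, and the deposited gene positions follow GRCm38. Of 6 library columns in the table, 2 match no sample label and stayed out of every step. The gene lengths that the authors deposited, which are not a measurement, served to compute TPM.

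A gene was tested if it reached 10 counts in 2 or more libraries. CPM was computed with TMM factors (edgeR 4.0.16, R 4.3.3), and log2 CPM used a prior count of 2. The experiments, with 2 libraries each, were compared by the quasi-likelihood test of edgeR, with Benjamini-Hochberg adjustment over all genes tested and a threshold of 0.05. Nothing in the labels says that libraries came from separate mice, so p-values measure only the spread between these libraries. Total counts ran from 3882803 to 8732858, and the intervals of shares are 95% Wilson intervals of counting error only, since PCR copies without molecular identifiers do not count molecules independently.

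Alternatives were DESeq2 1.42.0, median-of-ratios factors, total counts with and without *Rn45s*, the median of T cell markers as scale, other filters, a prior count of 0.5, CPM in place of TPM, shares without the 10 most abundant genes, and each replicate left out. *Hspa1a* and *Hspa1b* summed, and replicates 2 and 4 left out together, were added after seeing the data. The members and lists were chosen with earlier results of these data known. Genes named are the 6 *Hsp* and 6 *Dnaj* genes highest by TPM, the heat-inducible, ER and mitochondrial lists, *Hsf1* and *Hsf2*, the 3 genes with the widest and the 3 with the narrowest range, those past 1 log2 unit in both experiments, and the 3 with the lowest p. The other genes named were chosen after their values were seen. Promoter windows are those of RefSeq (GRCm38.p6). Other tools were Python 3.11.15, numpy 2.4.6, pandas 2.3.3, statsmodels 0.14.6 and matplotlib 3.10.9.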

Additional observations from a re-analysis of the deposited data

Results flagged for a closer look

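*Dnajc18*, a J-protein of the DNAJC class, had 18.0, 14.8, 54.9 and 11.04 CPM in replicates 1 to 4, from 130, 155, 246 and 44 counts. Replicate 3 stood apart from the others: its gap to the next library was 0.841 of the whole range, above the critical value of Dixon's test for 4 samples. This was 1 of 60 tested chaperone genes, against 7.96% of all tested genes, and chance passes about 1 gene in 20.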

How the results depend on the processing

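No paired analysis was possible because the experiments share no replicate numbers. No chaperone gene was called between the experiments with DESeq2, the other size factors and filters, or any single library left out; the T cell marker scale was not used in that test. Without replicate 3 there were 10 calls among all genes and without replicate 4 there were 81, with 0 chaperone genes in either. With no filter beyond 1 count in total there were 60 calls among all genes, 0 of them chaperone genes. The median percentile of the tested chaperone genes was 65.87 and became 70.86 with at least 10 counts in all 4 libraries, which removes low genes. Their mean share of counts was 1.289% and became 1.67% without the 10 most abundant genes, none of which is a chaperone gene. The genes higher within both experiments numbered 6, 17 with the median of the T cell markers as scale and 3 with at least 10 counts in all 4 libraries, where fewer genes were tested. The genes lower in both numbered 3, and 1 with the T cell marker scale. Leaving out each replicate gave median percentiles from 64.9 to 66.52, mean shares from 1.185% to 1.413% and a median SD from 0.68 to 0.76. Without replicates 2 and 4 together the median percentile was 66.98 and the mean share 1.318%. Leaving out 1 library moved the mean CPM of 7 of the 40 named chaperone genes by over 1.5 times: *Dnajc10* from 115.2 to 49.09 and *Dnajc22* from 9.838 to 4.851 without replicate 2, *Hspa1b* from 164.3 to 92.37 and *Dnajc18* from 24.7 to 14.63 without replicate 3, *Hsf2* from 7.925 to 4.879 and *Dnajc4* from 4.939 to 3.073 without replicate 4, and *Hspa2* from 15.21 to 9.017 without replicate 1. Leaving out replicates 2 and 4 together moved 11 of the 40, with *Dnajc10* at 22.07 and *Dnajc22* at 0. With total counts alone, some orders of summed lists turned: replicate 3 over replicate 4 went from 1.16 to 0.924 for the ER chaperones and from 1.08 to 0.858 for TRiC, and the second over the first experiment from 0.938 to 1.16 for the heat-inducible chaperones. Depth limits the low genes, as 3 counts are 0.773 CPM in the smallest library.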
